A study of Mus musculus with 40 samples.

Results

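Globins are the protein chains of haemoglobin. Described here are the probes for 3 mouse globin genes, the embryonic chains Hbb-y and Hba-x and the later chain Hbb-b1, on cDNA arrays hybridised with RNA of whole mouse embryos. A probe was kept where the annotation of the array gives it exactly 1 gene symbol and that symbol is one of the 3. This left 3 of 6970 genes with a single-gene probe and 7 of 15279 probes, 4 for Hbb-y, 1 for Hba-x and 2 for Hbb-b1, all of them on array design 2. The genes were chosen with their treated-over-control values known, so those values are given below as a description, with no test of their own.

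Treated embryos were kept in culture at 37 °C with 40 µM 4-hydroperoxycyclophosphamide, a form of the alkylating drug cyclophosphamide that needs no activation by the liver, for 5 h. Control embryos were cultured at 37 °C and left untreated. Total RNA of both kinds of embryo was hybridised together to every array, each in its own channel. On array design 2, 20 arrays came from 10 slides, so that each of 5 replicates had 1 slide with the treated RNA in channel 1 and 1 slide with it in channel 2, each slide having a plain and a B readout. The labels read here do not say which strain or stage was used, or how many embryos went into an RNA. The replicates are separate by their labels alone, so their spread may be partly technical, and their number limits the precision of each mean.

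Haemoglobin is built from alpha-type and beta-type chains around haem, and the genes of each type lie in a cluster from which different members are used in turn as development proceeds. The primitive red cells of the yolk sac use the embryonic beta-type chain Hbb-y and the zeta-like alpha-type chain Hba-x, and the definitive red cells of the fetal liver and later the marrow use adult chains such as the beta chain of Hbb-b1. Globin genes are transcribed under factors that include GATA1, which binds GATA motifs, and KLF1, which binds CACCC motifs.

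The promoters are shown because both embryonic genes stood at nearly the same treated-over-control ratio while lying in separate clusters. That level was not theirs alone: 19 probes assigned jointly to the adult alpha globin genes and a histone gene had mean log2 ratios of 0.58 to 0.70. Whether the promoters have a part in these ratios was not tested. Hbb-y and Hba-x, 2 of the 3 genes, matched the RefSeq promoter table of GRCm38.p6; Hbb-b1, on chromosome 7 as is Hbb-y, is named only. The 250 bases before each start are printed 5′ to 3′ on the gene's strand, Hbb-y from the minus strand at chr7:103853208-103853457 and Hba-x from the plus strand at chr11:32276350-32276599. Capitals mark the letters GATA (the GATA motif), CACCC (the KLF1 motif), CCAAT (the CCAAT box) and ATAAA (part of a TATA box), each searched on both strands, and matches may overlap or adjoin.
Hbb-y promoter: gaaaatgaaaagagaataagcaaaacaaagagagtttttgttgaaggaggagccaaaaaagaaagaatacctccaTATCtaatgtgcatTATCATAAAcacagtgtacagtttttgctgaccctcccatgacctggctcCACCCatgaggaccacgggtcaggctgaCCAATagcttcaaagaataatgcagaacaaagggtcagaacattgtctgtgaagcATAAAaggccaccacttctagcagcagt
Hba-x promoter: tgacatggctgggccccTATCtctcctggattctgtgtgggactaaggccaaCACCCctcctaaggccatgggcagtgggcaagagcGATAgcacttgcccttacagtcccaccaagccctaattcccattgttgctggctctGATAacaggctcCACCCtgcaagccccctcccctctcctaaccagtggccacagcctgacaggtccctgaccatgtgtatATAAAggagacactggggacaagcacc
The Hbb-y stretch held 2 GATA, 1 CACCC, 1 CCAAT and 2 ATAAA matches and had a GC content of 42.0%. The Hba-x stretch held 3 GATA, 2 CACCC, no CCAAT and 1 ATAAA match and had a GC content of 57.2%. The ATAAA match nearest to the start lay 28 to 24 bases before it in Hbb-y and 27 to 23 bases before it in Hba-x, where TATA boxes usually lie. Such short words are common: of 32817 promoters cut the same way, the GATA motif stood in 53.6%, the CACCC motif in 52.0%, the CCAAT box in 33.8% and ATAAA in 37.3%. A match here is a description of the sequence and not a measured binding site.

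The deposited values are log ratios, given here as treated over control on the log2 scale after each array was centred on its median, so 0 is the middle probe of the array. The log base and the numerator of the ratio were not stated. Base 2 and channel 1 over channel 2 were assumed, and with the other numerator every value below would change sign. Same-orientation arrays of design 2 had correlations as low as −0.54 over all probes, with 5 of 90 pairs below −0.3, so the direction is likely and not settled. The direction rests on Ccng1, a cyclin gene induced by p53, which lay above 0 on 20 of 20 arrays of design 2 when read this way. Brightness and saturation of the spots were not analysed here.

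Hbb-y, the embryonic beta-type chain, was higher in treated embryos in each of the 5 replicates. Its gene mean, over 4 probes, was 0.35, 0.57, 0.82, 0.48 and 0.84 in replicates 1 to 5. The mean was 0.61 ± 0.21 (SD, n = 5), a ratio of 1.53. Replicates 3 and 5 were the highest and replicate 1 the lowest, and none was near 0. The probe numbered 1624 read 0.42, 0.64, 0.83, 0.46 and 0.82 in replicates 1 to 5, with a mean of 0.63 ± 0.19 (SD, n = 5). The probe numbered 1720 read 0.28, 0.49, 0.79, 0.49 and 0.87, with a mean of 0.58 ± 0.24 (SD, n = 5). Probes 1656 and 1688 lay between them at 0.62 ± 0.21 and 0.60 ± 0.22 (SD, n = 5). The 4 probes thus gave nearly one profile: within a replicate they spanned between 0.032 and 0.153, less than the spread between replicates of any one of them. They are spaced 32 probe numbers apart, and whether their clones overlap was not analysed here, so they are not counted as separate evidence.

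Hba-x, the embryonic zeta-like chain, was measured by the single probe 1048. It read 0.44, 0.47, 0.84, 0.34 and 0.80 in replicates 1 to 5, with a mean of 0.58 ± 0.23 (SD, n = 5) and a ratio of 1.49. As with Hbb-y, replicates 3 and 5 stood highest, and all 5 replicates lay above 0. Within replicates, Hbb-y minus Hba-x was −0.089, 0.094, −0.024, 0.135 and 0.036, a mean of 0.031 ± 0.09 (SD, n = 5). The embryonic beta-type and alpha-type chains were therefore not separated beyond the spread of their difference.

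Hbb-b1, the later beta chain, stood lower, and its probes did not agree in size. Its gene mean was 0.29, 0.69, 0.40, 0.30 and 0.29 in replicates 1 to 5, with a mean of 0.39 ± 0.17 (SD, n = 5) and a ratio of 1.31. Here replicate 2 was the highest and replicate 5, at the top for Hbb-y, was among the lowest. Replicate 5 was the lowest at probe 3847 but the middle one at probe 4635. Probe 4635 read 0.35, 0.74, 0.52, 0.37 and 0.51, a mean of 0.50 ± 0.16 (SD, n = 5). Probe 3847 read 0.23, 0.63, 0.29, 0.23 and 0.074, a mean of 0.29 ± 0.21 (SD, n = 5). Probe 4635 exceeded probe 3847 in 5 of 5 replicates, by 0.21 ± 0.13 (SD, n = 5), so the level given for this gene depends on the probe. Hbb-y minus Hbb-b1 was 0.06, −0.12, 0.42, 0.17 and 0.55, a mean of 0.22 ± 0.27 (SD, n = 5) with 4 of 5 replicates above 0. Hba-x minus Hbb-b1 was 0.19 ± 0.30 (SD, n = 5), also with 4 of 5 above 0. In the order Hbb-y, Hba-x, Hbb-b1, the mean difference from each embryonic gene to Hbb-b1 was smaller than its SD.

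**Figure D1:**
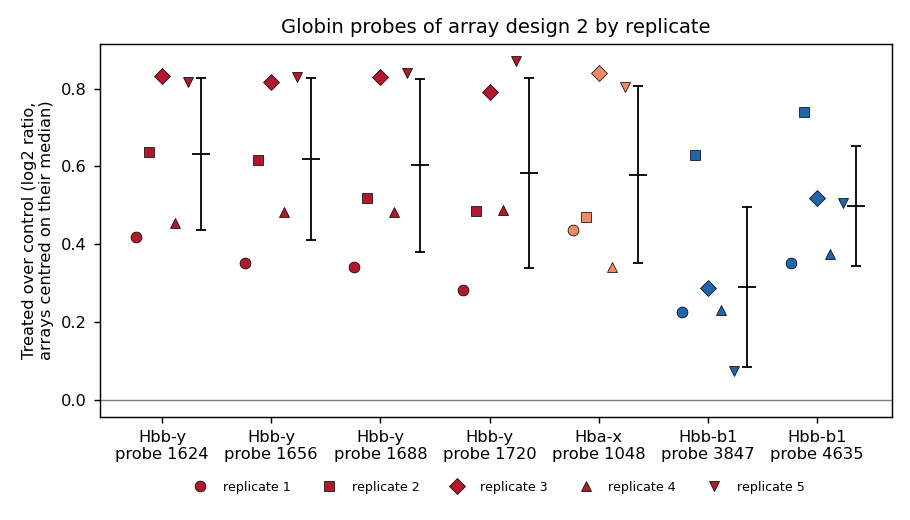
Treated-over-control log2 ratio of each globin probe on array design 2, with 1 symbol per replicate and a bar for the mean and SD of 5 replicates. All points lie above 0, replicates 3 and 5 are the highest at each of the 4 Hbb-y probes and Hba-x, and Hbb-b1 probe 3847 is the lowest at 0.29.

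When all probes of array design 2 were fitted with limma, 7 of the 7 globin probes passed an adjusted p of 0.05 as higher in treated embryos. The background was 19.8% of 7599 probes called higher and 8.07% called lower, and since the genes were chosen on this contrast nothing is read from their count. By the size of the mean, the Hbb-y probes ranked 27, 32, 40 and 43 of 7599, Hba-x 46, and the Hbb-b1 probes 72 and 500. With the numerator turned, these ranks would be 7573, 7568, 7560 and 7557, then 7554, and 7528 and 7100. All 7 probes were above 0 in 5 of 5 replicates, as were 20.1% of all probes of the design, and 13.8% were below 0 in all 5. Whole embryos were the source of the RNA, so causes such as more red cells or more globin RNA per red cell cannot be told apart. The centred ratios are relative to the middle probe of the array and do not give absolute amounts of globin RNA.

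The slides of opposite dye orientation showed how far these means rest on averaging. With the treated RNA in channel 2, Hbb-y read 1.24, 0.24, 1.11, 1.23 and 0.28 in replicates 1 to 5, a mean of 0.82 ± 0.52 (SD, n = 5). With the treated RNA in channel 1 it read −0.54, 0.89, 0.53, −0.28 and 1.40, a mean of 0.40 ± 0.81 (SD, n = 5). The orientations overlapped widely, and replicates 1 and 4 changed sign between their slides. Hba-x read 1.67, 0.52, 1.44, 1.43 and 0.72 with the treated RNA in channel 2, a mean of 1.16 ± 0.50 (SD, n = 5). With it in channel 1, Hba-x read −0.80, 0.42, 0.24, −0.75 and 0.89, a mean of 0.001 ± 0.74 (SD, n = 5). Replicates 2, 3 and 5 of Hba-x lay above 0 on both slides, while replicates 1 and 4 changed sign. The mean of Hba-x in channel 1 thus averaged values on both sides of 0. Hbb-b1 was instead higher with the treated RNA in channel 1, at 0.47, 1.49, 0.47, 0.63 and 1.01, a mean of 0.81 ± 0.44 (SD, n = 5). In channel 2 it read 0.11, −0.12, 0.34, −0.021 and −0.43, a mean of −0.025 ± 0.28 (SD, n = 5). That mean joins probes that differed in sign in channel 2. Probe 3847 averaged −0.38 ± 0.30 (SD, n = 5), with 1 of 5 slides above 0. Probe 4635 averaged 0.33 ± 0.37 (SD, n = 5), with 4 of 5 above 0. Hbb-y and Hba-x were above 0 on 8 of 10 slides and Hbb-b1 on 7 of 10. No globin was above 0 on all 10 slides, which 0.316% of the probes of the design were, while 0.105% were below 0 on all 10.

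**Figure D2:**
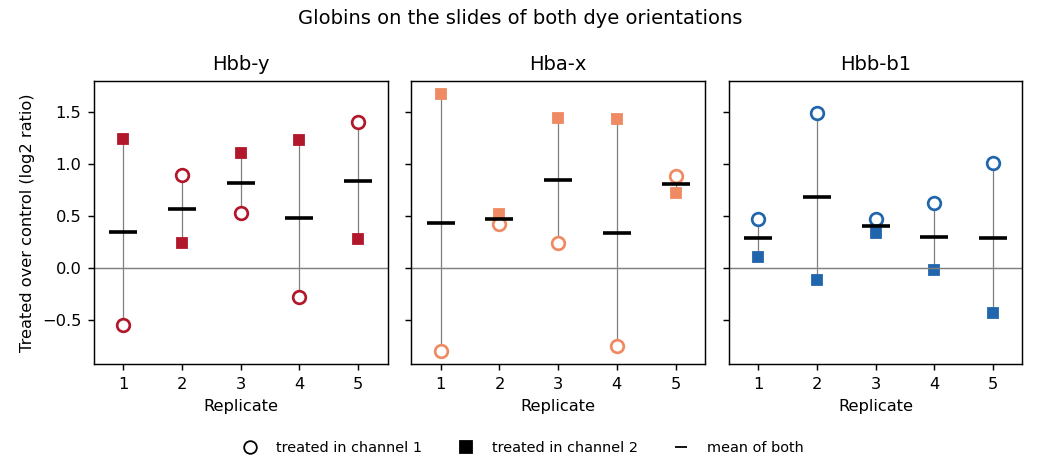
Log2 ratio of the 3 globins (mean over each gene's probes) on the slide with treated RNA in channel 1 (open circles) and in channel 2 (filled squares) of each replicate, with a dash for the mean of both. Hba-x averages 0.001 in channel 1 and 1.16 in channel 2, and Hbb-b1 0.81 and −0.025. In channel 2 the Hbb-b1 probes differ, with means of −0.38 (probe 3847) and 0.33 (probe 4635).

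The dye part, which is the part of the ratio that follows the channel and not the treatment, was not used to choose the genes and was tested with limma over all 7599 probes. It was −0.58 for Hba-x, with a 95% interval from −1.02 to −0.13 and a limma adjusted p of 0.163. For Hbb-b1 probe 3847 it was 0.67, with an interval from 0.39 to 0.95 and a limma adjusted p of 0.0702. The 4 Hbb-y probes lay between −0.25 and −0.15 and Hbb-b1 probe 4635 at 0.17, with limma adjusted p from 0.57 to 0.761. None of the 7 passed by limma, against 0% of the background, and 2 of 7 had an unadjusted p under 0.05, so with 5 replicates the dye parts were not separated from 0 after adjustment. The dye part of probe 3847 exceeded that of probe 4635 of the same gene in 5 of 5 replicates, by 0.51 ± 0.41 (SD, n = 5).

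**Figure D3:**
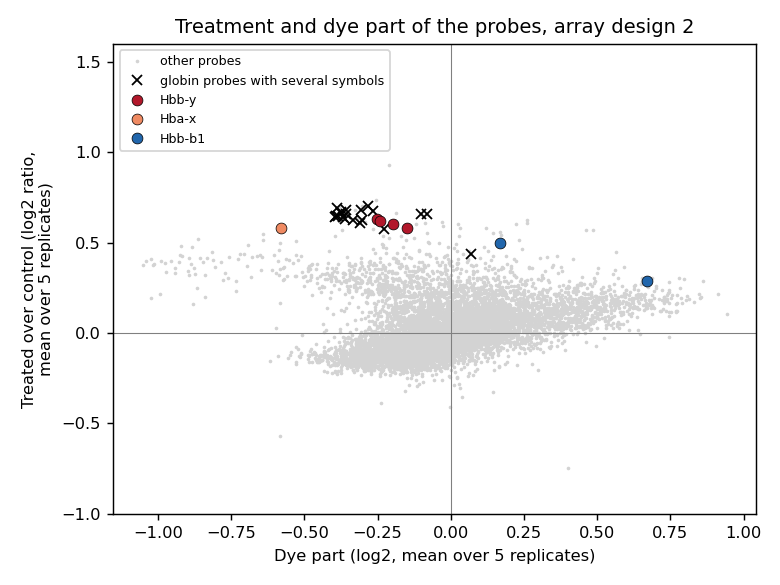
Treated-over-control log2 ratio against dye part, each the mean over 5 replicates, for the probes of array design 2. The globins are coloured by gene and globin probes with several symbols are crosses; Hbb-y and Hba-x lie left of 0 on the dye axis, Hbb-b1 right of it.

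On array design 1, replicates 1 and 2 were in slide series 2000 and replicates 3 to 5 in series 3000. Slides of array design 2 fell into series 2000 (replicates 1 to 3) and series 3000 (replicates 4 and 5). Hbb-y averaged 0.58 in the first and 0.66 in the second, Hba-x 0.58 and 0.57, and Hbb-b1 0.46 and 0.30. The difference, series 3000 minus 2000, ran from −0.23 (95% interval −0.47 to 0.017) for Hbb-b1 probe 3847 to 0.16 (−0.11 to 0.43) for Hbb-y probe 1720. The limma adjusted p lay between 0.561 and 0.997, with 0 of 7 probes passing, 0 at an unadjusted p under 0.05 and 0% of all probes called. The B readouts differed from the plain ones by 0 to 0.07, with a limma adjusted p of 0.999 for each probe, 0 of 7 at an unadjusted p under 0.05 and 0% of all probes called.

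Across the 20 arrays the Hbb-y probes followed each other with Pearson correlations of 0.964 to 0.996, and followed Hba-x with 0.842 to 0.917. Hbb-y against Hbb-b1 gave −0.192 to 0.687, the Hbb-b1 pair 0.538, and Hba-x against Hbb-b1 −0.532 and 0.342. These points share arrays and dye orientation, as do all probes: the Hbb-y mean correlated with the other 7595 probes between −0.678 and 0.875 (5th to 95th percentile), with a median of −0.089. Of the 22 probes that are no globins and are next to a globin probe by number (1 or 32 apart), the ratios ran from −0.16 to 0.44 with a median of 0.001, below all 5 probes of the embryonic genes.

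Related globin transcripts can hybridise to one another's probes. On array design 2, 19 further probes are assigned jointly to the adult alpha globin genes and a histone gene. Their means ran from 0.58 to 0.70, with medians over the 19 probes of 0.40, 0.63, 0.91, 0.48 and 0.84 in replicates 1 to 5. No replicate of any of them was below 0.29, and replicates 3 and 5 were again the highest, as in Hbb-y and Hba-x. No gene is named from them, since each has several symbols. A probe assigned jointly to the adult beta chains Hbb-b2 and Hbb-b1 read 0.44 on array design 2. Array design 1 held 1 probe of each kind. The alpha one read 0.25, 0.63, 0.71, 0.66 and 1.13 in replicates 1 to 5, a mean of 0.68. The beta one averaged 0.50 and did not pass (limma adjusted p = 0.0516). It read 1.09 in replicate 4 and between 0.177 and 0.589 in the others, and averaged 0.38 without the readout that lacks many values. The 19 alpha probes and the beta probe of design 2 passed as higher, as did the alpha probe of design 1. Of all probes, 19.8% were called higher on design 2 and 0.638% on design 1. How much of any globin ratio comes from a related transcript was not tested.

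Most like Hbb-y over the 10 slides, by the root mean square difference of the log2 ratios, were H19 (0.18), Hspa8 (0.194 and, at another probe, 0.223), Phtf1 (0.207) and Dynll1 (0.233), against a median of 0.965 over all probes. H19 is a noncoding RNA of an imprinted locus and Hspa8 a constitutive chaperone. Hba-x was closest to Dynll1 (0.23), Rfc1 (0.237), Tnk2 (0.261), H19 (0.264) and Nfatc4 (0.275), with a median of 1.06 over all probes. Hbb-b1 was closest to Akr1a1 (0.195), Glo1 (0.201), Slbp (0.22), Myl12a (0.225) and Vdac3 (0.23), with a median of 0.719. These genes are the closest by choice. Between the globins themselves the difference was 0.382 between Hbb-y and Hba-x, 0.803 between Hbb-y and Hbb-b1, and 1.11 between Hba-x and Hbb-b1. The 10 slides hold both dye orientations, so these differences take in the dye part as well as the treatment. The mean dye part was −0.58 for Hba-x and 0.42 for Hbb-b1, while their treated-over-control means differed by 0.19. Likeness here is therefore not likeness of the treatment ratio alone.

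Of 17 red cell markers, 3 were measured on array design 2 and 2 on design 1, and none passed as higher, beside 19.8% of all probes called higher on design 2 and 0.638% on design 1. With so few genes measured, a count of 0 says little. Their medians were −0.002 and −0.04, beside 0.017 and 0.005 for all probes. Alas2, the erythroid enzyme for the first step of haem synthesis, read 0.074, −0.17, 0.14, 0.03 and −0.082 in replicates 1 to 5, a mean of −0.002 ± 0.12 (SD, n = 5; limma adjusted p = 0.985). Its replicates lay on both sides of 0, all below the lowest replicate of every globin gene mean. Slc4a1, the band 3 anion exchanger of the red cell membrane, read 0.29, 0.13, 0.073, 0.07 and −0.033, a mean of 0.11 ± 0.12 (SD, n = 5; limma adjusted p = 0.155). Car1, a carbonic anhydrase, read −0.003, −0.18, −0.47, −0.019 and −0.29, and fell with a mean of −0.19 ± 0.19 (SD, n = 5; limma adjusted p = 0.0289). Without replicate 2, 3 or 5 Car1 no longer passed. On array design 1, Gata1, the erythroid transcription factor, averaged −0.058 ± 0.067 (SD, n = 5; limma adjusted p = 0.455) and Ermap −0.022 ± 0.24.

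**Figure D4:**
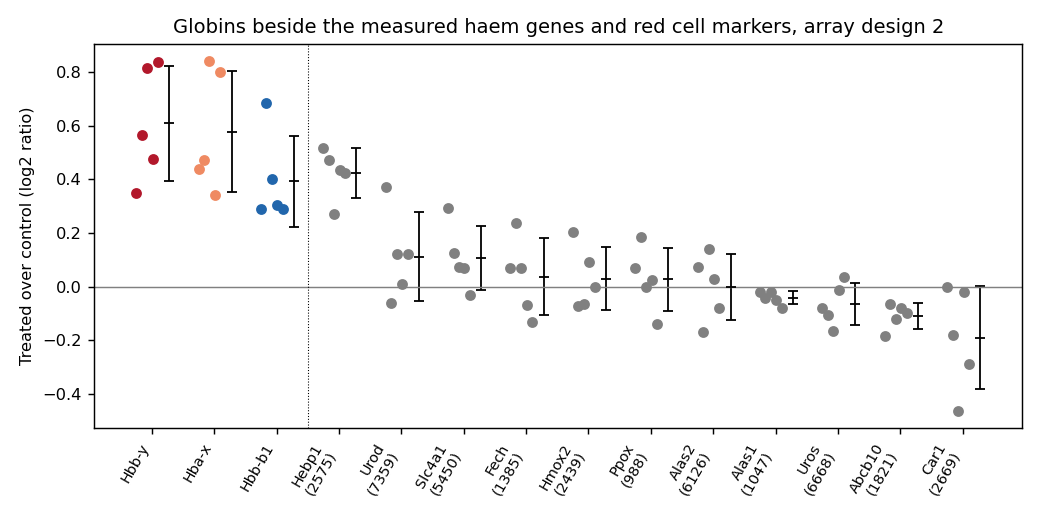
Treated-over-control log2 ratio of the globins (left of the dotted line) and of the measured haem genes and red cell markers on array design 2 (grey, with probe numbers), with replicates 1 to 5 from left to right and a bar for mean and SD. Hebp1 at 0.42 is the only grey probe above Hbb-b1, and Alas2 and Slc4a1 lie at −0.002 and 0.11.

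Among genes for haem synthesis and breakdown on array design 2, 1 of 9 passed as higher and none as lower, with a median of 0.027, beside 19.8% and 8.07% of all probes called. It was Hebp1, a haem-binding protein, at 0.42 ± 0.093 (SD, n = 5; limma adjusted p = 6e-06). On array design 1, where 0.638% of all probes were called higher and 0.013% lower, none of 12 passed. There Hmox1, which degrades haem and is induced by oxidative stress, stood at 0.47 ± 0.24 (SD, n = 5; limma adjusted p = 0.0516). It passed at 0.0033 by limma when a readout of replicate 4 that lacks 786 values was left out, a setting under which 10.2% of the design was called higher and 5.77% lower.

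Of the iron genes, 3 of 7 passed as higher and 1 as lower on array design 2, with a median of 0.079. For this list and the next ones, the shares of all probes called higher and lower were 19.8% and 8.07% on design 2. On design 1 they were 0.638% and 0.013%, or 10.2% and 5.77% without the readout that lacks many values. The iron genes higher on design 2 were the ferritin light chain Ftl1 (0.43 ± 0.092, SD), the iron chaperone Pcbp2 (0.24 ± 0.12) and the mitochondrial iron importer Slc25a37 (0.19 ± 0.13). The lower one was the iron exporter Slc40a1 (−0.19 ± 0.15). Slc25a37 no longer passed without replicate 1 or 5, and Slc40a1 without replicate 1 or 3. On array design 1, Ftl1 (0.50 ± 0.16 at probe 7282) and the iron-sulphur cluster gene Glrx5 (0.35 ± 0.072) were the 2 of 8 that passed, and neither of these probes passed without replicate 1, 2, 3 or 5. Without the readout that lacks many values 3 of 8 passed, with Ncoa4 (limma adjusted p = 0.00851) as the other. Of the genes for the red cell membrane and enzymes, 6 of 12 passed as higher and 1, Car1, as lower on array design 2, and none of 7 on design 1. Without the readout that lacks many values, 2 of those 7 passed as higher, Prdx2 and Gpx1, with limma adjusted p of 0.0205 and 0.0291. Named among the 6 are the urea transporter Slc14a1 (0.34 ± 0.065), Cd24a (0.36 ± 0.15 at probe 4742), the glutathione peroxidase Gpx1 (0.32 ± 0.092) and the mitophagy receptor Bnip3l (0.27 ± 0.12 at probe 3678). At another probe of design 2 Bnip3l read 0.16, and at its probe on design 1 it read 0.003. Cd24a, Gpx1 and Bnip3l are also expressed in many cells other than red cells. Of the transcription and signalling genes, Nr2f2 (0.36 ± 0.13) rose and Gata2 (−0.16 ± 0.076) fell among 5 on design 2, Gata2 not without replicate 1, 2 or 3. Ldb1 (0.43 ± 0.18) was the 1 of 7 higher on design 1, but not without replicate 1, 2, 3 or 5. With the trend on the dye profile removed, Hebp1 and Ftl1 passed on design 2, with limma adjusted p of 0.0251 and 0.0259. The other rises named here for design 2 did not pass then, nor did the falls of Car1, Slc40a1 and Gata2, with limma adjusted p of 0.257, 0.357 and 0.287. Without centring no gene of these lists was called higher, and 8 of 9 haem, 5 of 7 iron, 8 of 12 membrane and enzyme and 4 of 5 transcription genes of design 2 were called lower. That setting called 0.276% of all probes of design 2 higher and 87.3% lower, so nothing is read from these counts. No single-gene probe measured any of the 16 other globin and haemoglobin-chaperone symbols that were looked for.

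Markers of other cell types, of the embryo or of the tissues around it, were few on the arrays. Of other blood cells, 1 of 2 genes passed as higher on design 2, the progenitor and endothelial marker Cd34 at 0.26, and none of 1 on design 1, Lyz2 at −0.044. None of 3 endothelial genes passed, with Cdh5 at 0.22. None of the 9 and 4 yolk sac visceral endoderm genes on designs 1 and 2 passed, with ranges of −0.17 to 0.49 and −0.14 to 0.067 and with Mttp (−0.16) and Lrp2 (−0.14) at the smallest p. Of placenta and decidua, none of 3 passed on design 1, with Prl8a2 at −0.26. On design 2, 1 of 2 passed as lower, the matrix gene Dcn at −0.18 (probe 6699), which did not pass without replicate 1 or 3. The other Dcn probe of design 2, 7629, read 0.034 (limma adjusted p = 0.651). With the trend on the dye profile removed, neither Cd34 nor Dcn passed, with limma adjusted p of 0.106 and 0.297. Without the readout that lacks many values, Dab2 of the visceral endoderm passed as higher on design 1 (limma adjusted p = 0.0319). Prl8a2 and Cts7 of the placenta then passed as lower (limma adjusted p = 0.0298 and 0.0436). That setting called 10.2% of all probes of design 1 higher and 5.77% lower. With all readouts kept, Dab2 on design 1 read 1.72 in replicate 4 and between 0.153 and 0.195 in the other replicates. Its probe on design 2 read −0.044 (limma adjusted p = 0.562). The part of these cell types in the globin values was not tested.

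The size of the globin ratios moved with the centring and with a trend that ties treatment to dye. The uncentred replicate medians of array design 2 lay between −0.66 and −0.12, so centring raised every probe by that much. Without it Hbb-y was 0.18 ± 0.33, Hba-x 0.15 ± 0.35 and Hbb-b1 −0.035 ± 0.31 (SD, n = 5), and 0 of 7 probes were called higher or lower by limma, with 0 at an unadjusted p under 0.05, beside 0.276% of all probes called higher and 87.3% lower. Uncentred, the means of Hbb-y and Hba-x were above 0 in 3 of 5 replicates each and that of Hbb-b1 in 2 of 5. With a smooth trend of the treatment part on the dye profile removed, Hbb-y was 0.33 ± 0.22, Hba-x 0.23 ± 0.23 and Hbb-b1 0.19 ± 0.19 (SD, n = 5). The 4 probes then called were Hbb-y 1624, 1656 and 1688 and Hbb-b1 4635, beside 3.15% of all probes called higher and 1.88% lower.

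**Figure D5:**
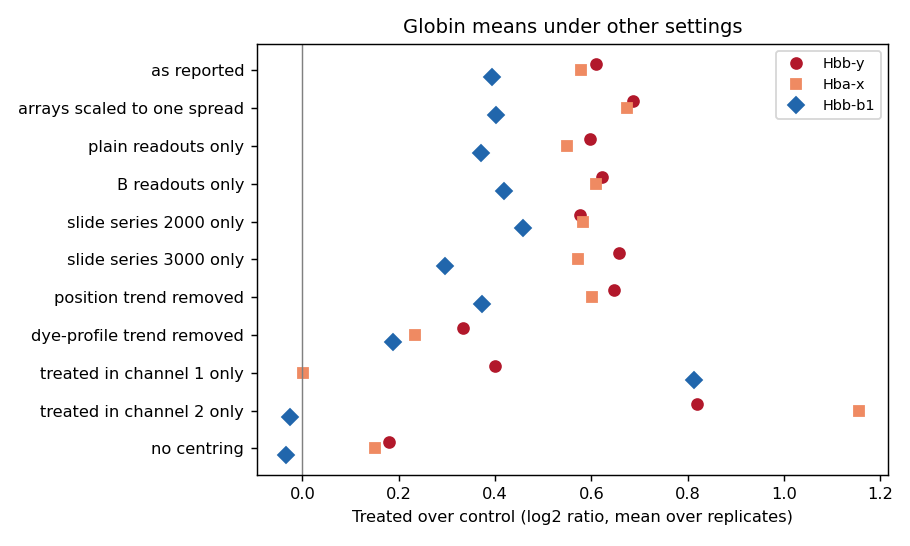
Mean treated-over-control log2 ratio of the 3 globins as reported and under 10 other settings. The means stay between 0.19 and 0.69 with trends removed, arrays scaled or readouts and series taken apart; with single orientations or without centring Hbb-b1 reaches −0.035 and Hba-x 0.001.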

How the data were processed

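Ratios of treated over control mouse embryos were measured on 2-colour arrays. The deposited values were taken as log2 ratios of the channels, with scanning, normalization, log base and numerator not given in the sources used here. Source names give the channel of each RNA, per the labels. Array medians of design 2 ran from −1.73 to 1.69. Each array was centred on its median, ratios were turned to treated over control, spots of one clone and readouts were averaged, and both orientations were averaged to 1 value per replicate. The dye part is the same mean without turning. Array designs were analysed apart. All value columns were used.

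limma 3.58.1 in R 4.3.3 tested each probe that had a value in 3 or more replicates for a mean other than 0 (eBayes after lmFit, two-sided, Benjamini-Hochberg, threshold 0.05). The dye-profile trend was fitted with mgcv 1.9.3 (3 principal components, bases of 40 and 8). Fits were tested on simulated data. Genes are those of the platform annotation: 4855 probes of design 2 have 1 symbol, 274 several and 2470 none, and on design 1 these numbers are 4749, 227 and 2704. Of the single-symbol probes, 4712 on design 1 and 4804 on design 2 matched the GRCm38.p6 gene table, with 0 differing symbols. The others were not compared.

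The globins, the lists and the tests were chosen with earlier results of these data known. Named are all globin probes, the 5 single-gene probes closest to each globin, and of each list up to 4 genes that passed with one sign in every replicate, or the 1 with the smallest p. Alas2, Slc4a1, Ermap, Prdx2, Ncoa4, Dab2 and Cts7 were named after their values were seen. Other settings varied centring, scaling, readouts, orientations, slide series, the rule on missing values, the prior, single arrays in place of replicates and replicates left out. Removal of a position trend was chosen after seeing the data.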

Additional observations from a re-analysis of the deposited data

Results flagged for a closer look

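The Hbb-b1 gene mean was 0.69 in replicate 2, against 0.29 to 0.40 in the other 4 replicates, farther apart than a sample of 5 usually shows. Without replicate 2 the mean is 0.32. Cd34 read 0.49 in replicate 1, against 0.18 to 0.23 in the others. Of 75 groups of 5 values checked in this way 2 stood apart, and chance gives about 1 in 20.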

How the results depend on the processing

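The gene means of Hbb-y and Hba-x stayed above 0 under every setting tried. That of Hba-x was barely so with the treated RNA in channel 1 only, at 0.001 ± 0.74 (SD, n = 5). With a replicate left out the gene means ran from 0.55 to 0.68 for Hbb-y, 0.51 to 0.64 for Hba-x and 0.32 to 0.42 for Hbb-b1. All 7 globin probes were called higher each time, beside 888 to 1794 of the 7599 probes of design 2. Without centring the means were 0.18, 0.15 and −0.035 (probe 3847 −0.14). With the treated RNA in channel 1 only, Hba-x was 0.001 and Hbb-b1 0.81. In channel 2 only, Hba-x was 1.16 and Hbb-b1 −0.025 (probe 3847 −0.38, probe 4635 0.33). With the dye-profile trend removed the means were 0.33, 0.23 and 0.19. Globin probes called higher were 0 without centring, 2 in channel 1, 3 in channel 2 and 4 with the trend removed. Of the 7599 probes of design 2, 21, 709, 106 and 239 were called higher in these settings. The genes were chosen on this contrast, so nothing is read from the globin counts. The dye part was called for 2 globin probes with B readouts, and for 0 to 2 with a replicate left out. The share of all probes called for the dye part in these settings is not given here, so nothing is read from these counts.

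Of all probes of design 2, 2114 were called, against 6655 without centring (21 higher, 6634 lower), 1331 with arrays scaled (1151 higher, 180 lower), 1076 with plain readouts, 1190 in channel 1, 117 in channel 2, 811 in series 3000, 382 with the trend removed, and 1013 (without replicate 1) to 2637 with a replicate left out. Of design 1, 50 were called, against 4615 without centring (19 higher, 4596 lower), 345 scaled, 501 with plain and 3 with B readouts, 2324 in channel 1, 1108 in channel 2, 3 in series 3000, 1224 without the poor readout, 569 with single arrays, and 7 to 82 with a replicate left out.

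Series differences of the Hbb-y probes 1624, 1656, 1688 and 1720 were −0.22, −0.17, −0.13 and −0.066 without centring. With a replicate left out they ran from −0.18 to 0.19, −0.11 to 0.23, −0.082 to 0.27 and −0.032 to 0.35, for Hba-x from −0.24 to 0.22 and for Hbb-b1 probe 4635 from −0.19 to 0.004. The dye part of probe 1720 then ran from −0.33 to 0.023, and the readout differences of probes 1688 and 1720 from −0.003 to 0.033 and from −0.019 to 0.015.

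Of the other genes, these changed sign without centring: Hebp1 (−0.005), Pcbp2 (−0.19), Ftl1 on design 2 (−0.003), Slc25a37 (−0.24), Gpx1 (−0.093 and −0.11), Slc14a1 (−0.092), Bnip3l (−0.16), Cd24a (−0.068), Nr2f2 (−0.071), Cd34 (−0.17) and Cdh5 (−0.018). In channel 1 only, Hebp1 (−0.086), Pcbp2 (−0.11) and Slc14a1 (−0.05) did, and in channel 2 only Gata2 (0.018), Gata1 (0.034), Lyz2 (0.072), Mttp (0.15), Prl8a2 (0.025) and Dcn (0.035). With the trend removed it was Pcbp2 (−0.061), Slc14a1 (−0.004), Lyz2 (0.054) and Mttp (0.036), in series 2000 Gata1 (0.005), and Lyz2 also scaled (0.012), with plain readouts (0.007) and in series 3000 (0.016). The cause of these changes was not tested. Treated and control RNA are already paired within each array's ratio, so no further pairing was fitted. In the setting with single arrays, the replicate was fitted as a random block. Ratios alone give no signal over background, so what dim spots limit is not analysed here.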
